A study of Danio rerio with 12 samples.

Results

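Tissue injury and infection switch on a set of genes that open up the extracellular matrix and recruit leukocytes. Of these, mmp9, mmp13a, irg1l and il1b were followed here across 12 pools of whole zebrafish embryos. The 4 genes were chosen by their measured variation between pools of the same group, so their spread and their co-variation are given as descriptions, with no test. All 4 members were found among 14134 genes by symbol, each with an Entrez ID that carries the same symbol in RefSeq, and all 4 were among the 11964 genes tested (mean of at least 1 CPM over the 12 libraries, where CPM is reads scaled to a common size of normalized library).

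In all groups, GFP-positive embryos judged healthy had their chorions removed and were selected at 23 hours after fertilization. The control group was kept in DMSO, the others in 50 µM empagliflozin or 50 µM canagliflozin, both inhibitors of the sodium-glucose cotransporter SGLT2. At 27 hours, after 4 hours of exposure, RNA was extracted from 5 embryos per sample, with 4 samples (here called pools) in each of the 3 groups. The labels give neither the clutch or day of a pool nor the transgene behind the GFP, and p-values therefore measure the spread between these pools, which may be technical in part.

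mmp9 encodes gelatinase B, a secreted zinc protease that cleaves denatured collagens and basement membrane collagen, and mmp13a encodes a collagenase of the same family. il1b encodes interleukin 1 beta, an early inflammatory cytokine made as a precursor and released by activated leukocytes and damaged epithelium. irg1l is a relative of the gene for the itaconate-forming enzyme of activated macrophages. In zebrafish larvae, irg1l has been described in epidermal cells upon infection, upstream of matrix metalloproteinase production. Whole-embryo RNA mixes epidermis, leukocytes and all other tissues, so that more cells of a type and more RNA per cell cannot be told apart.

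The 12 libraries held 16149682 to 27842375 recovered reads, and 1 read stood for 0.0363 to 0.0621 CPM. On the principal axis of log2(CPM + 1), which held 41.8% of the variance, the empagliflozin pools scored 15.6 to 18.6, control 4 scored 7.52 and canagliflozin 4 scored 5.95. The other 6 pools lay between -17.9 and -8.92. Control 4 and canagliflozin 4 thus stood apart from their groups, and both had low levels of the 4 genes.

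All 4 genes were high in control 3, empagliflozin 3, canagliflozin 1 and canagliflozin 2, and low in most of the other 8 pools. Every group therefore held at least 1 pool with a high and at least 2 pools with a low level, and pools that had received the same treatment differed by up to 57.5 times (mmp13a in control). No member differed between groups by its test, but genes chosen for a wide spread within groups are unlikely to pass it. The genes most like the members over the pools included AP-1 subunits, the JAK-STAT inhibitor socs3a and the protease inhibitor timp2b.

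Among the proteases, mmp9 was at 7.89, 13.7, 92.0 and 7.92 CPM in controls 1 to 4. With empagliflozin, pools 1 to 4 had 7.55, 12.1, 51.5 and 6.67 CPM, and with canagliflozin 67.2, 52.3, 7.75 and 4.87 CPM. The 4 high pools held 51.5 CPM or more and the other 8 pools 13.7 CPM or less, with no value in between. The highest pool was 11.7 times the lowest of its group in controls, 7.73 times with empagliflozin and 13.8 times with canagliflozin.

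The collagenase gene mmp13a had the widest spread of the 4. Its levels were 0.876, 1.97, 50.4 and 1.38 CPM in controls 1 to 4, and 0.436, 0.485, 11.7 and 1.20 CPM in the empagliflozin pools. In the canagliflozin pools they were 15.9, 11.2, 1.14 and 1.55 CPM. The same 4 pools were the highest, at 11.2 CPM or more against 1.97 or less in the others, and control 3 exceeded control 1 by 57.5 times. Between high pools the level was less even than for mmp9: control 3 had 50.4 CPM, and the other 3 had 11.2 to 15.9.

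irg1l was at 1.93, 9.89, 78.4 and 2.42 CPM in controls 1 to 4. The values were 1.38, 2.33, 13.9 and 2.86 CPM with empagliflozin, and 9.19, 28.1, 4.12 and 2.12 CPM with canagliflozin. This gene did not follow the other 3 in each pool. Control 2, which was low in mmp13a and il1b, had 9.89 CPM of irg1l (exact 95% Poisson interval 8.67 to 11.2), above the 9.19 CPM (7.94 to 10.6) of canagliflozin 1, although the intervals overlapped. In canagliflozin, pool 2 was the highest for irg1l and pool 1 for the other 3 genes.

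The related gene irg1, matched by symbol alone (an older symbol of acod1 in RefSeq, which encodes the itaconate-forming enzyme), ran from 0.683 to 3.72 CPM. Its highest value was in canagliflozin 1 and its lowest in canagliflozin 2, where irg1l stood at 28.1 CPM. The pattern of irg1 thus did not match that of irg1l in canagliflozin 2. In empagliflozin 3 irg1 was at 2.31 CPM, within the 1.51 to 2.57 of the other empagliflozin pools. In control 3, however, it was at 3.20 CPM, the highest of the controls, as was irg1l. By the measure of likeness to the members given below, irg1 had r of 0.54.

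The cytokine gene il1b was the scarcest of the 4 in reads, with 6 to 87 per library. Its levels were 0.351, 0.251, 4.49 and 0.625 CPM in controls 1 to 4, and 0.508, 0.533, 2.83 and 0.602 CPM in the empagliflozin pools. In the canagliflozin pools they were 2.64, 1.37, 0.596 and 0.265 CPM. Control 3, with 87 reads, had an exact 95% Poisson interval of 3.599 to 5.54 CPM, and control 4, the highest of the other controls, one of 0.350 to 1.03 CPM. The interval of canagliflozin 2, 0.856 to 2.07 CPM from 22 reads, overlapped that of canagliflozin 3, 0.308 to 1.04 CPM, so that this pool stands apart less firmly in il1b than in the other genes. These intervals cover counting error only: without molecular identifiers, copies of 1 molecule are counted as separate reads.

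**Figure D1:**
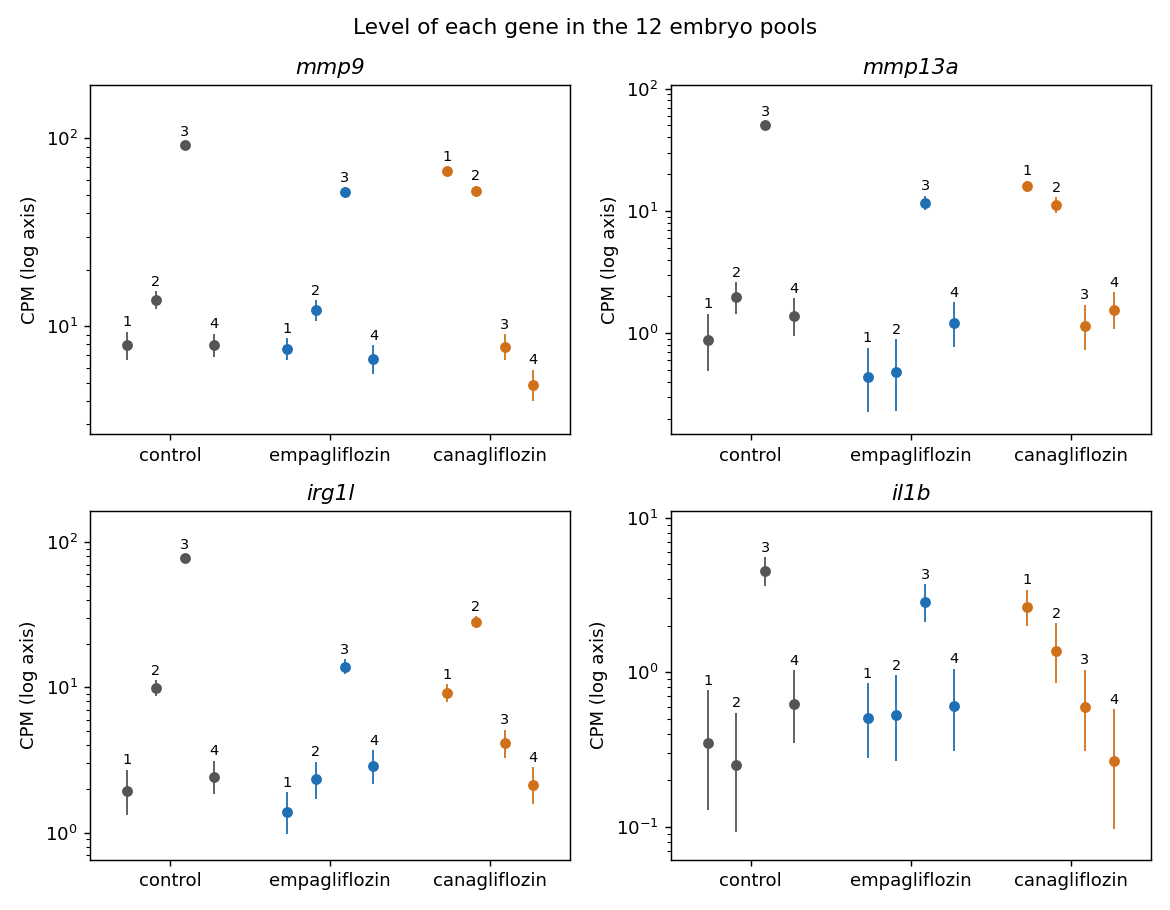
Level of each gene in CPM (log axis) in each of the 12 pools, by group, with the replicate number above each point and bars for the exact 95% Poisson interval of the reads. Control 3, empagliflozin 3, canagliflozin 1 and canagliflozin 2 are high for mmp9 at 51.5 to 92.0 CPM, against 4.87 to 13.7 CPM in the other 8 pools.

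As a description of genes chosen for their spread, reads varied around the level expected from library size with a chi-square per degree of freedom of 512 to 1162 for mmp9 and 154 to 937 for mmp13a. It was 150 to 1238 for irg1l and 19.9 to 61.6 for il1b, where counting error alone would give about 1. Among the tested genes, mmp13a, irg1l and mmp9 had ranks 1, 2 and 3 by SD within groups, at 1.78, 1.65 and 1.57 on the log2(CPM + 1) scale, and il1b had rank 16 at 0.79. The median gene had an SD of 0.15. This variation chose the members, so neither the chi-square values nor the ranks test anything.

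The co-variation of the 4 genes was measured on log2(CPM + 1) after removing each group's mean, over the 12 pools (9 residual degrees of freedom). Pearson's r was 0.95 for mmp9 with mmp13a, 0.92 for mmp9 with il1b and 0.90 for mmp9 with irg1l. It was 0.97 for mmp13a with il1b, 0.92 for mmp13a with irg1l and 0.84 for irg1l with il1b. By ranks, Spearman's rho ran from 0.73 for irg1l with il1b to 0.92 for mmp9 with mmp13a and for mmp13a with irg1l. No p is given, as the genes were chosen with this variation known.

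These coefficients mainly describe the step between the high and the low pools. Without control 3 and empagliflozin 3, the pools farthest from the median of the members' mean standardized deviation, r ran from 0.47 for irg1l with il1b to 0.93 for mmp9 with mmp13a. Within the 8 pools with mmp9 under 20 CPM, a limit set after the values were seen, the median r of the 6 pairs was -0.06 (range -0.19 to 0.72). In those 8 pools irg1l kept r of 0.72 with mmp9 and 0.64 with mmp13a, with control 2 the highest for all 3 genes. The 3 pairs with il1b had r of -0.19 to -0.11 there, at 6 to 15 reads of il1b per library, and mmp9 with mmp13a had r of -0.00.

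**Figure D2:**
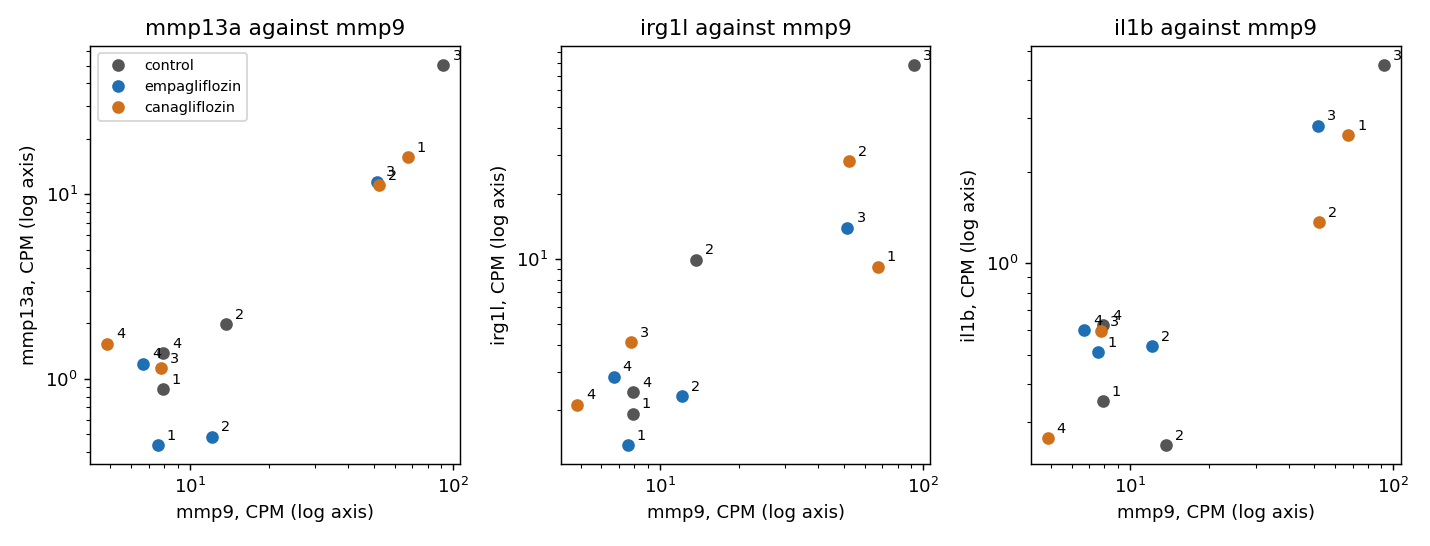
mmp13a, irg1l and il1b against mmp9, all in CPM on log axes, 1 point per pool with its replicate number, coloured by group. The 4 pools with mmp9 at 51.5 to 92.0 CPM stand at the upper right for mmp13a and il1b, and control 2 reaches the irg1l level of canagliflozin 1.

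The members were not always each other's nearest genes. Among 11963 other tested genes, il1b had mmp13a as its nearest by r, and mmp13a had il1b at rank 2 behind junbb (r of 0.97). For mmp9 the nearest was timp2b (r of 0.98), with mmp13a at rank 11, il1b at 22 and irg1l at 34. For irg1l the other members ranked at 16 (mmp13a), 33 (mmp9) and 106 (il1b).

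Genes that behave like the 4 were ranked by r with the mean of the members' deviations, each divided by its SD. The 12 highest of 11960 genes were timp2b, junbb, cbx7a, creg2, socs3a, slc16a9b, usp25, fosab, gpr84, pfkfb4b, ndufaf7 and si:ch211-153b23.4, with r from 0.98 down to 0.94. Genes with r over 0.8 numbered 185, or 1.55% of those tested, and 75 had r under -0.8. The rule rests on the same pools and the same variation that chose the members, so these names are a description. Not all of them stayed among the 12 under other settings, as given in the closing section.

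timp2b encodes a tissue inhibitor of metalloproteinases. It was at 12.1, 14.3, 34.1 and 14.5 CPM in controls 1 to 4, at 10.9, 11.6, 24.6 and 11.2 CPM with empagliflozin and at 28.2, 26.0, 14.8 and 10.97 CPM with canagliflozin. The 4 pools high in mmp9 held at least 24.6 CPM of this inhibitor gene and the others at most 14.8. Its r was 0.98 without control 3 and empagliflozin 3, and 0.80 within the 8 pools low in mmp9. For each set of pools the members' mean deviation was computed anew. Within the 8 low pools the members hardly co-varied (median r of -0.06), and few degrees of freedom remain once 3 group means are removed. An r within those pools therefore does not show whether a gene follows the pattern of all 12.

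junbb encodes a JunB subunit of AP-1, the Fos-Jun transcription factor that responds within minutes to growth factors and injury. It was at 17.6, 20.1, 44.8 and 19.7 CPM in the controls, at 15.98, 19.4, 28.2 and 17.3 CPM with empagliflozin and at 29.8, 29.2, 14.6 and 15.3 CPM with canagliflozin. fosab, which encodes its partner c-Fos, reached 23.0 CPM in control 3, 9.55 in empagliflozin 3 and 8.76 and 13.0 in canagliflozin 1 and 2, against 1.44 to 4.17 in the other 8 pools. Within those 8 pools r was 0.55 for junbb and 0.03 for fosab.

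socs3a encodes a suppressor of cytokine signalling that blocks JAK kinases. It was at 6.27 to 11.4 CPM in the 4 pools high in mmp9 and at 1.51 to 3.68 CPM in the others. Within the 8 pools low in mmp9, its r was -0.19. cbx7a, of the Polycomb CBX family, was at 11.7 to 27.2 CPM against 1.42 to 5.11, and had r of 0.94 within the 8 low pools. gpr84, in mammals a receptor for medium-chain fatty acids on myeloid cells, was at 1.57 to 2.79 against 0.547 to 1.09 CPM.

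The uncharacterized si:ch211-153b23.4 was at 7.03 to 23.6 against 2.03 to 5.45 CPM. slc16a9b, of the monocarboxylate transporter family, was at 19.4 to 46.3 against 8.13 to 16.5. Other genes of the 12 moved little in level: usp25, a deubiquitinase gene, was at 58.6 to 66.6 against 52.6 to 58.5 CPM, and pfkfb4b, which encodes a glycolysis-regulating enzyme, at 66.4 to 84.4 against 51.6 to 63.5. ndufaf7, an assembly factor gene of respiratory complex I, was at 15.2 to 19.6 against 9.66 to 13.7. The values of creg2 overlapped, at 21.1 to 30.7 against 16.3 to 22.5. Within the pools low in mmp9, r was 0.12 for usp25 and 0.50 to 0.86 for the other genes named here.

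**Figure D3:**
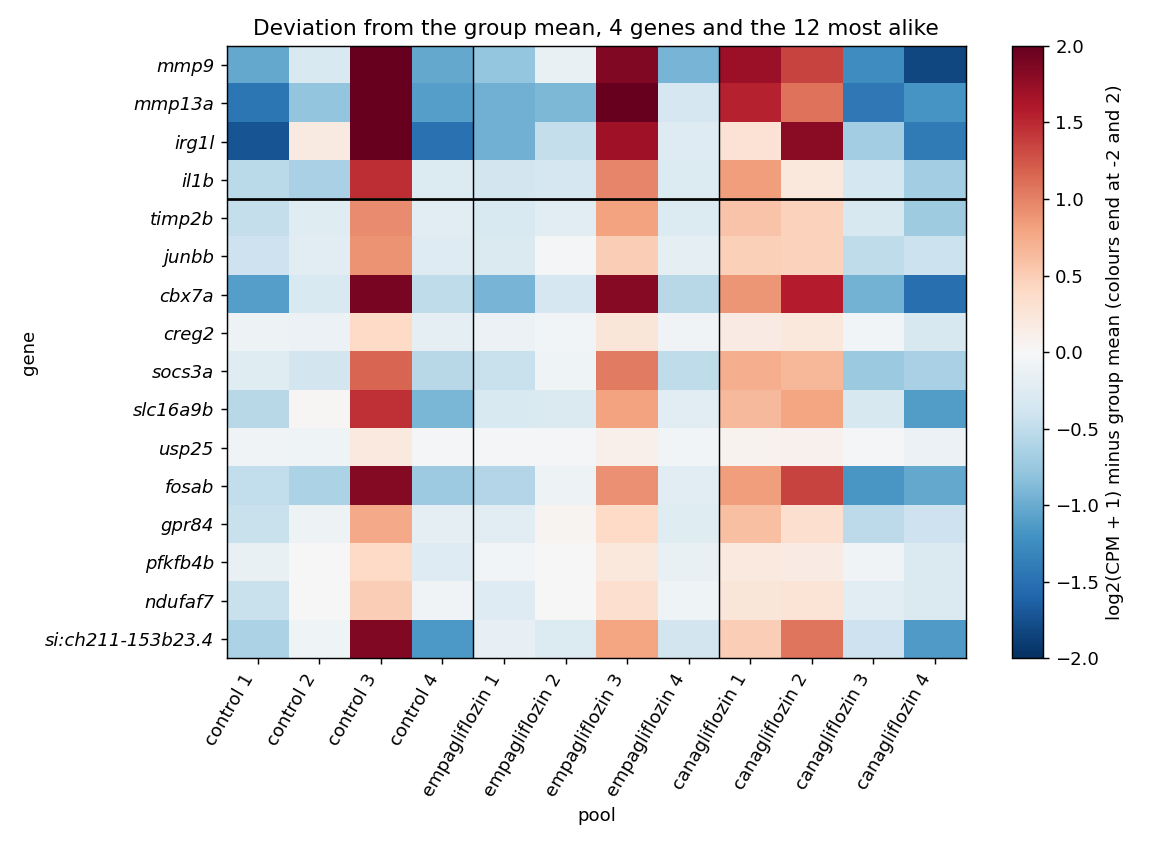
Deviation of log2(CPM + 1) from the group mean for the 4 genes (above the line) and the 12 genes most like them, in each pool, where red is above and blue below the mean. Control 3, empagliflozin 3, canagliflozin 1 and canagliflozin 2 are above their group mean in all 16 genes, and usp25 has the palest cells.

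The same measure was read for 10 lists of genes of injury, inflammation and cell types that share pathways with the members. Several lists were found only in part: 7 of 28 metalloproteinases and inhibitors, 9 of 17 NF-kB genes, 19 of 29 interleukin 1 and Toll-like genes and 22 of 34 cytokines and chemokines. Medians and counts cover the tested genes only, not the whole families. Over all tested genes other than the members, the median r was 0.02 and 1.55% had r over 0.8. In the list of AP-1 and other immediate-early factors, 8 of 18 tested genes had r over 0.8, with a median of 0.54. Besides junbb and fosab these were ier2, atf3, fosl1a, fosl2, junba and jun. fosl1a, which encodes the Fos relative Fra-1, was at 24.5, 6.56, 12.1 and 22.05 CPM in control 3, empagliflozin 3, canagliflozin 1 and canagliflozin 2, and at 1.51 to 3.30 in the other pools. egr1, another immediate-early gene, had r of only 0.37. Without control 3 and empagliflozin 3, 6 of the 18 were over 0.8 and the median was 0.51. Within the 8 pools low in mmp9, r was 0.86 for jun, 0.64 for ier2 and 0.49 for fosl2. It was -0.17 for fosl1a, -0.42 for junba and -0.84 for atf3 there, against a mean of members that hardly co-varied in those pools.

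In the list of JAK-STAT feedback and acute phase genes, 7 of 20 had r over 0.8, with a median of 0.61. They were socs3a, socs3b, stat3, il6st, cebpb, cebpd and ptgs2b. Without control 3 and empagliflozin 3, 6 were over 0.8 and the median was 0.50. stat3, which encodes the transcription factor downstream of interleukin 6 type receptors, had r of 0.93 and reached 63.3 CPM in control 3. ptgs2b, for an inducible cyclooxygenase, was at 16.5 CPM in control 3, 9.28 and 16.02 in canagliflozin 1 and 2, but 5.72 in empagliflozin 3, against 4.18 to 4.97 in the other pools.

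All 9 tested NF-kB subunits and feedback genes had r above 0, with a median of 0.57 and 1 over 0.8, nfkb2. This rested on control 3 and empagliflozin 3: without them 4 of 9 were above 0, 0 were over 0.8 and the median was -0.02. NF-kB is among the factors through which interleukin 1 receptors act. The list of interleukin 1 and Toll-like receptor signalling had a median of 0.21 and 0 of 13 over 0.8. pycard, the adaptor of the inflammasome that matures interleukin 1 beta, had r of -0.92, the lowest of that list.

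Among cytokines and chemokines, 1 of 11 tested genes had r over 0.8, the chemokine gene cxcl18b (r of 0.92), and the median was 0.14. cxcl18b was at 5.47 CPM in control 3, 2.52 in empagliflozin 3 and 3.30 and 2.36 in canagliflozin 1 and 2, against 0.584 to 1.92 in the other 8 pools. A further 11 genes of the list lay under the mean of 1 CPM. Of these, tnfb and the chemokine gene ccl20a.3 had their highest values in control 3, at 3.05 and 4.34 CPM, while tnfa reached at most 0.0942 CPM and il6 0.315. The values of tnfa and il6 rest on few reads in every pool. In control 3, where 1 read stood for 0.0516 CPM, tnfb and ccl20a.3 rested on more reads.

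In the list of tissue repair and clotting genes the median r was 0.50, with 3 of 20 over 0.8, among them f3b and hbegfa, which encode tissue factor and a growth factor of the EGF family. Without control 3 and empagliflozin 3, 0 of these 20 were over 0.8 and the median was 0.12. Of 7 tested metalloproteinases and inhibitors outside the members, timp2b and timp2a (r of 0.86, and 0.76 without control 3 and empagliflozin 3) had r over 0.8, while the median was -0.15, or 0.21 without those 2 pools. No gene of the DNA damage and cell death list was over 0.8 (0 of 14, median 0.21).

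**Figure D4:**
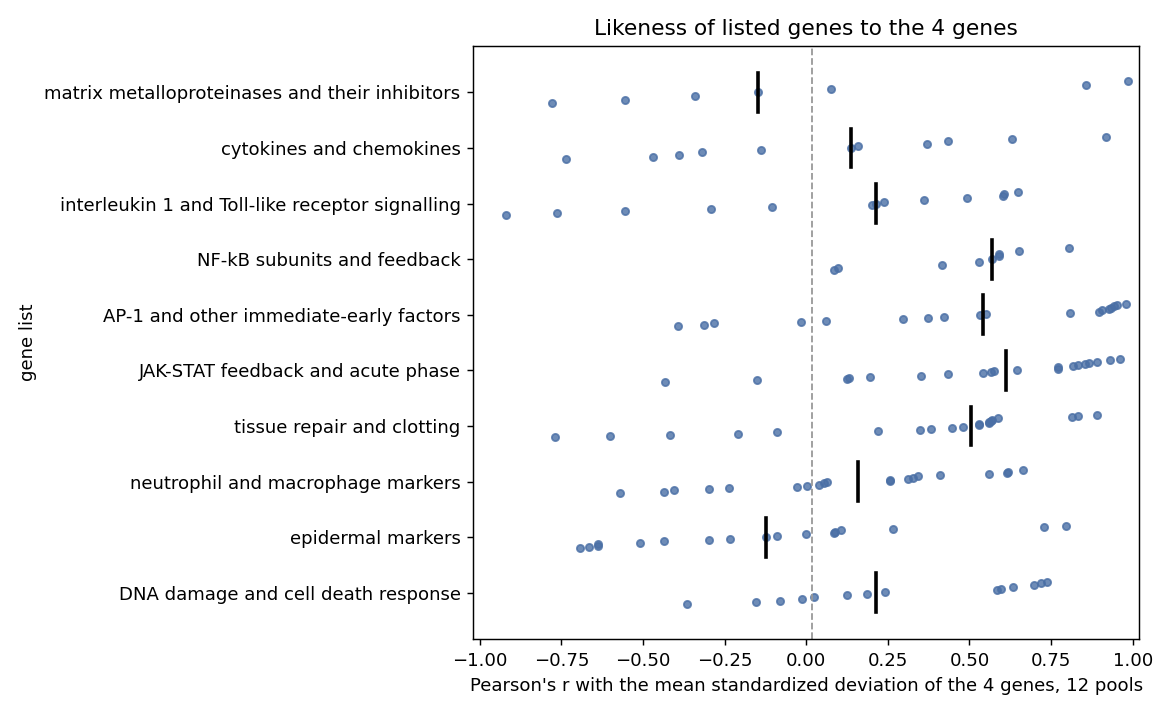
Pearson's r of each tested gene of 10 lists with the mean standardized deviation of the 4 genes over 12 pools, 1 point per gene, with the list's median as a black bar and the median of all tested genes (0.02) as a dashed line. AP-1 and JAK-STAT genes reach 0.98 and 0.96, and epidermal and metalloproteinase lists have medians below 0.

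Markers of leukocytes and epidermis, cell types known to make these transcripts, had no gene with r over 0.8. Over all tested genes the share was 1.55%, so a count of 0 in lists of this size is near that share. Of 24 neutrophil and macrophage markers, 22 were in the table, and 0 of 20 tested had r over 0.8 (median 0.16, highest 0.66 for lect2l). The myeloperoxidase gene mpx had r of 0.00 and the macrophage gene mpeg1.1 of -0.40. Their summed level was 328 CPM in control 3 against 290 to 323 in the other controls, 271 in empagliflozin 3 against 263 to 291, and 288 and 325 in canagliflozin 1 and 2 against 308 and 320. The neutrophil gene npsn was at 0 in empagliflozin 2, the only zero among these markers in the 12 libraries.

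Of 19 epidermal markers, 18 were in the table, and 0 of 17 tested had r over 0.8 (median -0.12). The highest, epcam, an epithelial adhesion gene, was just under that limit at 0.79, and at 0.78 without control 3 and empagliflozin 3. They summed to 36244 CPM in control 3 against 32772 to 40277 in the other controls, to 30784 in empagliflozin 3 against 31856 to 33280, and to 38099 and 36227 in canagliflozin 1 and 2 against 38816 and 39686. The keratin gene krt93 was at 0 in empagliflozin 1 and canagliflozin 4. Reads per library in the 4 pools high in mmp9, 16149682 to 21532470, lay in the lower part of the range of all 12. Those of control 1, empagliflozin 2, empagliflozin 4 and canagliflozin 3, at 16684720 to 20422296, lay in the same part. The part of depth in the result was not tested.

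The 3 comparisons between groups share samples in pairs. Between groups, the question was whether 4 hours in either compound shifted the 4 genes beyond this spread. mmp9 was at 30.4 ± 41.2 CPM in control, 19.5 ± 21.5 in empagliflozin and 33.0 ± 31.5 in canagliflozin (mean ± SD, n = 4 each). mmp13a was at 13.6 ± 24.5, 3.46 ± 5.51 and 7.45 ± 7.30 CPM, and irg1l at 23.2 ± 37.0, 5.12 ± 5.89 and 10.9 ± 11.9 CPM, in the same order. il1b was at 1.43 ± 2.05, 1.12 ± 1.14 and 1.22 ± 1.05 CPM. The SD was above the mean in 9 of these 12 cases, and the groups overlapped in every gene and comparison.

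With empagliflozin against control, 0 of the 4 genes passed an adjusted p of 0.05 (limma, adjusted over 11964 genes), where 13.3% of all tested genes did, 6.87% higher and 6.41% lower. The members were chosen for their spread within groups, against which the test weighs a difference. A call was therefore unlikely in every comparison, and a count of 0 does not show that the genes were unchanged. At an unadjusted p under 0.05 the count was also 0 of 4 in limma, edgeR and DESeq2, but the smallest unadjusted p, for irg1l in edgeR, was 0.0501, at the limit. The log2 difference was -0.32 for mmp9 (95% interval -2.12 to 1.49, limma adjusted p 0.83) and -0.88 for mmp13a (-2.92 to 1.17, adjusted p 0.56). It was -1.06 for irg1l (-2.95 to 0.83, adjusted p 0.428) and -0.02 for il1b (-0.95 to 0.91, adjusted p 0.98). On recovered reads the differences were larger, at -2.04 for mmp13a and -2.22 for irg1l in edgeR, again not called. In limma with a pseudocount of 0.1 CPM, mmp13a was at -1.24 and irg1l at -1.19. The part of control 3 in the edgeR values was not tested. Leaving out control 3 moved the limma values: without it they were 0.47, 0.23, -0.05 and 0.47, again with none called. Without empagliflozin 3 they were -0.93, -1.61, -1.63 and -0.35.

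For canagliflozin against control, limma called 0 of the 4 members and 0% of all genes (0 of 11964, 0% in each direction, with 925 at an unadjusted p under 0.05; edgeR called 0 and DESeq2 29). The differences in log2 were 0.20 for mmp9 (-1.61 to 1.999), 0.18 for mmp13a (-1.86 to 2.23), -0.22 for irg1l (-2.10 to 1.67) and 0.05 for il1b (-0.88 to 0.98). Leaving out control 3 moved them to 0.98, 1.29, 0.80 and 0.54. Leaving out canagliflozin 1 gave -0.38, -0.33, -0.31 and -0.23, and leaving out canagliflozin 2 gave -0.26, -0.18, -0.82 and -0.02. irg1l stayed negative in these last 2 cases, but was 0.015 without canagliflozin 3 and 0.25 without canagliflozin 4. None was called, and the direction of each gene changed with single pools left out.

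Empagliflozin and canagliflozin, compared at the same dose and time, called 0 of 4 members, while 25.5% of all genes passed, 12.4% higher and 13.1% lower with empagliflozin. mmp9 differed by -0.51 (-2.31 to 1.29) and mmp13a by -1.06 (-3.11 to 0.99, limma adjusted p 0.435). irg1l differed by -0.85 (-2.73 to 1.04, adjusted p 0.504) and il1b by -0.07 (-1.004 to 0.86). As folds of CPM + 1, the intervals ran from 0.201 to 2.45 for mmp9, 0.116 to 1.98 for mmp13a and 0.150 to 2.06 for irg1l. They still include falls of several fold and smaller rises, so these pools do not show that the compounds act alike on these 3 genes. The differences of mmp9, mmp13a and irg1l were 0.06, -0.55 and -0.75 without canagliflozin 1, -0.06, -0.70 and -0.24 without canagliflozin 2, and -1.13, -1.79 and -1.41 without empagliflozin 3.

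In the authors' deposited table of that comparison, 15.6% of genes had a false discovery rate under 0.05, among them mmp13a (0.0288) and irg1l (0.0392) but not mmp9 (0.152). il1b had no value in that table. The authors' filtered table, with 0.376% of genes, held mmp13a at a log2 fold change of -1.06. The authors' deposited log2 values for mmp13a, irg1l and mmp9 are the same as those computed here, so the calls differ in the test and not in the size. In an exact permutation test of the same values, two-sided, mmp13a had p = 0.257 and irg1l p = 0.40 (n = 4 each), where the smallest p this design allows is 0.0286. Over the 12 pairs of gene and comparison, each adjusted exact p was 1.

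**Figure D5:**
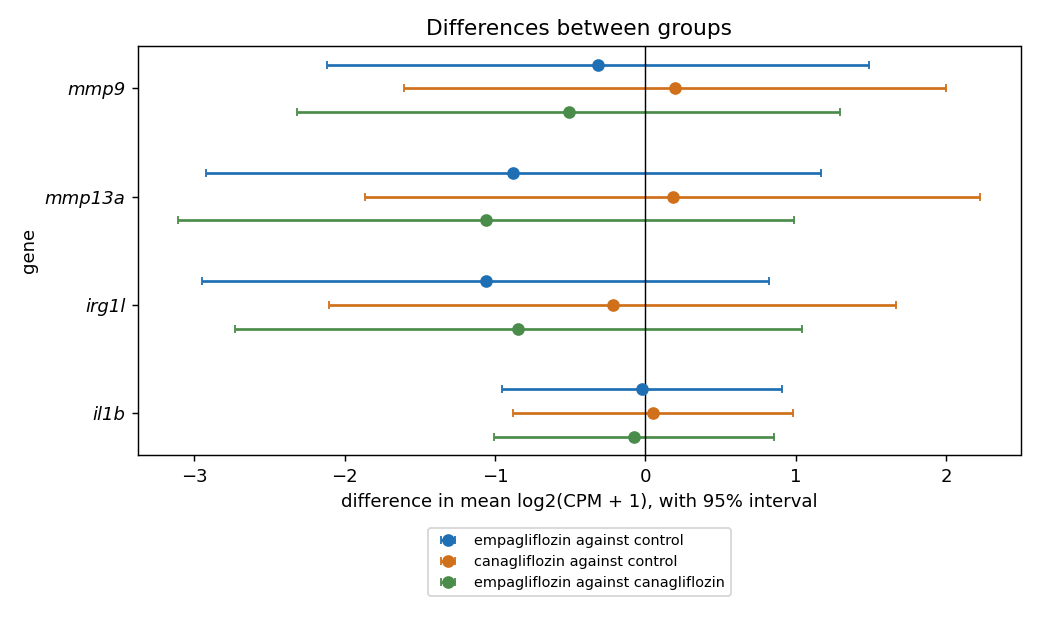
Difference in mean log2(CPM + 1) between groups for each of the 4 genes, with 95% intervals from limma, in 3 comparisons shown by colour. Every interval spans 0, and those of mmp13a are the widest, from -3.11 to 2.23.

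Some genes of the lists did differ between groups. Of the 22 listed genes with r over 0.8, jun was the only one called in any comparison, with empagliflozin against canagliflozin. Over all tested genes, 25.5% were called in that comparison and 13.3% with empagliflozin against control. The 22 were picked by their variation within groups, which makes a call less likely, so this count does not show a lack of response. In the AP-1 and immediate-early list, egr1 rose with empagliflozin against control by 0.89 and mych fell by 0.36 on the log2 scale (limma adjusted p 0.00736 and 0.0154), while junbb, with a difference of -0.25, was not called (adjusted p 0.563). Against canagliflozin, egr1 was higher by 1.096 and mych and jun differed by -0.47 and -0.37. Over 18 tested genes this made 1 higher and 1 lower in one comparison and 1 higher and 2 lower in the other, with medians of -0.08 and -0.03, against -0.00 and 0.01 over all genes.

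Over all tested genes, 6.41% were lower with empagliflozin against control and 13.1% against canagliflozin, with 6.87% and 12.4% higher, and the counts of each list stand beside these shares. Of 20 neutrophil and macrophage markers, 4 fell with empagliflozin against control: lyz, coro1a, lcp1 and cyba, with log2 differences of -0.48, -0.34, -0.35 and -0.70. The median of the list was -0.19. Against canagliflozin 3 fell (coro1a, lcp1 and fcer1gl) and 0 rose, with a median of -0.19. Among 17 epidermal markers 2 rose and 3 fell against control, and 2 rose and 7 fell against canagliflozin. Those that rose were tp63 and krtt1c19e, genes of the basal layer of the epidermis, by 0.46 and 0.58 against control, and the tight junction gene cldni fell by 0.42.

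In the other lists few genes passed. Against control, empagliflozin raised the membrane metalloproteinase gene mmp14b by 0.27 (1 of 7 higher, 0 lower) and lowered csf3a, a granulocyte growth factor gene, by 0.61 (0 of 11 cytokine genes higher, 1 lower). The DNA damage list had 0 higher and 2 lower of 14, ccng1 and gadd45aa. The JAK-STAT, NF-kB, interleukin 1 and tissue repair lists had 0 called of 20, 9, 13 and 20 genes. Against canagliflozin the interleukin 1 list had 2 higher, caspa (0.50) and pycard (0.41, limma adjusted p 0.04998, at the limit). pycard had r of -0.92 with the members, and canagliflozin held 2 of the pools high in them. The part of those pools in its difference was not tested. The NF-kB list had 1 higher (rel) and 1 lower (nfkbiab), and the JAK-STAT list 0 of 20. Of the cytokine genes 1 was higher (cxcl14) and 1 lower (csf3a), of the tissue repair genes 1 higher (fn1b) and 1 lower (cd9b), and of the metalloproteinases 1 higher (mmp14b) and 0 lower. The DNA damage list had 1 higher (casp3b) and 4 lower of 14. With canagliflozin against control 0 genes were called in all 10 lists.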

How the data were processed

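RNA from 12 pools was read as 50 bp pairs from a stranded mRNA kit, per the labels' protocols. FastQC, the danRer10 build and R 3.6.1 are named in the submitters' processing notes, and no aligner or counter is given in the sources used here. The authors' deposited table holds a normalized signal per gene and library. Its values were whole reads, within 0.001 reads, once divided by the value of 1 read (100% of values), so each library was scaled by 1 constant. The values are called CPM here, and which scaling method set that constant cannot be told from them alone. The authors' deposited comparison tables, named after ROTS, hold p-values, false discovery rates and a log2 fold change.

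The 4 genes, the lists and the tests were chosen with earlier results of these data known. The comparisons used limma 3.58.1 (lmFit, eBayes with a trend; R 4.3.3) on log2(CPM + 1), 3 group means in 1 fit, two-sided, for 11964 genes with a mean of at least 1 CPM, with Benjamini-Hochberg adjustment and a threshold of 0.05. Fold changes on this scale understate changes of scarce genes. The fit was also run on simulated counts with 1 dispersion shared by all genes. The 4 members vary far more, so that run does not show whether the fit would call them. edgeR 4.0.16 and DESeq2 1.42.0 on the recovered reads, other pseudocounts, minimums, weights and left-out libraries were alternatives. The exact permutation test and the correlations without the 2 farthest pools or within the 8 low pools were added after seeing the data. Named genes were the 4 members, the 12 with the highest r, and listed genes with the highest r or past the threshold. Not every gene of that rule is printed, and other listed genes were named after their values were seen. Of 236 list entries, 174 were matched by symbol and 4 by an older symbol through RefSeq (GRCz12tu). No sequence or coordinate is printed, since none of the tables used here is in the authors' build.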

Additional observations from a re-analysis of the deposited data

Results flagged for a closer look

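In 8 of 18 sets of 4 pools, the highest pool lay farther from the rest than Dixon's 95% limit for 4 values allows. The measure was the gap over the range, on CPM and not on a log scale. About 1 set in 20 would be marked for normally distributed values in genes not chosen for their values, and CPM of these genes are skewed. The 4 genes were chosen by their variation between pools of a group, so the marks describe that choice and test nothing. In control the pool was control 3 for each of the 4 genes, with a gap of 0.93 of the range for mmp9, 0.978 for mmp13a, 0.896 for irg1l and 0.912 for il1b. In empagliflozin it was empagliflozin 3, with gaps of 0.879, 0.932, 0.882 and 0.96 in the same order. In canagliflozin no gene was marked. There pools 1 and 2 were both high in mmp9, mmp13a and il1b. For irg1l, pool 2 was at 28.1 CPM and pool 1 at 9.19, and the gap was under the limit. The summed myeloid and epidermal markers were marked in no group. The 8 marks are not independent, because the 4 genes move together. On log2(CPM + 1), the scale of the tests, each of these 8 gaps is smaller, and fewer of them pass the limit.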

How the results depend on the processing

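No alternative brought a member past the threshold: 0 of 295 values, with a lowest adjusted p of 0.156 (irg1l, empagliflozin against control, edgeR). DESeq2 gave no adjusted p for il1b against control with either compound. In 37 the sign was opposite to the main one, mostly where 1 library was left out. With all libraries, il1b in empagliflozin against control was 0.15 with a pseudocount of 0.1, 0.029 with quantile normalization and 0.23 with sample weights. In canagliflozin against control, mmp13a was -0.021 with a pseudocount of 5, -0.88 in edgeR and -0.87 in DESeq2, il1b was -0.017 with a pseudocount of 5 and -0.21 in edgeR, and irg1l was 0.17 with sample weights. On recovered reads several differences kept their sign and grew by over 1.5 times. Against control with empagliflozin, edgeR and DESeq2 gave -0.66 and -0.65 for mmp9, -2.04 and -1.997 for mmp13a and -2.22 and -2.19 for irg1l, and edgeR gave -0.38 for il1b. With canagliflozin they gave -1.13 and -1.09 for irg1l. For empagliflozin against canagliflozin they gave -0.78 and -0.77 for mmp9 and -0.16 and -0.13 for il1b. mmp9 in canagliflozin against control shrank to 0.11 and 0.12.

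Leaving out 1 library at a time gave, for empagliflozin against control, -0.93 to 0.47 for mmp9, -1.61 to 0.23 for mmp13a, -1.64 to -0.05 for irg1l and -0.35 to 0.47 for il1b. For canagliflozin against control it gave -0.38 to 0.98, -0.33 to 1.29, -0.82 to 0.80 and -0.23 to 0.54. For empagliflozin against canagliflozin it gave -1.13 to 0.061, -1.79 to -0.55, -1.41 to -0.24 and -0.40 to 0.20. The genes called over the whole table were 268 to 3033, 0 to 7 and 1932 to 4234 in the same order of comparisons. For empagliflozin against control, the main count of 1589 was 316 to 770 (268 without control 3) without any 1 of controls 1 to 3 or of the 4 empagliflozin libraries, and was 3033 without control 4 and 2708 without canagliflozin 4. For empagliflozin against canagliflozin it was lowest without canagliflozin 1 and highest without canagliflozin 4, and the 7 calls of canagliflozin against control came without control 3. The counts were 4476, 42 and 5464 with sample weights, 4246 and 4887 for the comparisons with empagliflozin without control 4 and canagliflozin 4, and 29 for canagliflozin against control in DESeq2.

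The median r of the 6 pairs, 0.92, was 0.84 by ranks, 0.82 without control 3 and empagliflozin 3, -0.055 within the 8 low pools and 0.88 to 0.95 with 1 library left out. Of the 12 most alike genes, 2 were shared by ranks, 7 without control 4 and canagliflozin 4, 7 with the replicate block and 6 to 10 with 1 library left out. junbb was kept in all 18 alternatives, timp2b, cbx7a and slc16a9b in 17, creg2 in 15, socs3a in 14, usp25 in 13 and fosab in 11. pfkfb4b was kept in 10, gpr84 in 8, si:ch211-153b23.4 in 6 and ndufaf7 in 5. The labels do not say whether replicate numbers pair the pools. Over genes, same-numbered deviations correlated at -0.12 to 0.59, with 2 of 12 over 0.1. These were control 4 with canagliflozin 4 (0.59) and control 3 with empagliflozin 3 (0.26). With the replicate block the member differences were the same in size and 0 were called, and the median r was 0.97. Over the whole table, the block raised the calls from 1589 to 2269 for empagliflozin against control. For empagliflozin against canagliflozin they rose from 3049 to 3456. The causes of these shifts were not tested.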
